A study of Mus musculus with 8 samples.

Results

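The nucleic acid sensor genes are 10 genes whose proteins recognise foreign or misplaced RNA and DNA: Ddx60, Ifih1, Dhx58, Eif2ak2, Zbp1, Tlr3, Tlr7, Tlr9, Cgas and Sting1. They were taken by gene name, not by their values, from the 56748 genes of the deposited tables, and all 10 passed the filter on low counts and were tested among 18495 genes. Whole skin of 8 male mice aged 35 weeks was sequenced after poly-T selection. In the NPY tet/tet group were 3 mice of strain B6;129S4-Npytm2Rpa/J, in which both copies of the neuropeptide Y gene carry the tet allele, and in the WT group were 5 siblings (NPY +/+). No mouse received a treatment, per the labels. The series asks how overexpressed neuropeptide Y relates to inflammation and fibrosis of skin. The strain name marks a mixed genetic background, and the labels name neither the body site of the skin nor the cells in which the allele is active. Each library is 1 mouse.

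Cells recognise viral and displaced nucleic acids in separate compartments. In the cytosol, helicases of the RIG-I family bind double-stranded RNA and signal through the mitochondrial adaptor MAVS, while the enzyme cGAS binds DNA and makes a cyclic dinucleotide that activates STING. In endosomes, Toll-like receptors read double-stranded RNA (TLR3), single-stranded RNA (TLR7) and unmethylated CpG DNA (TLR9). Most of these routes end in type I interferon. Interferon in turn induces several of the sensor genes through a promoter motif known as the interferon-stimulated response element. In skin, keratinocytes, fibroblasts, Langerhans cells, macrophages and plasmacytoid dendritic cells are the main users of these sensors.

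The libraries held 31370433 to 47495565 counts. Npy itself had 11802, 11864 and 10394 counts in the NPY tet/tet libraries and 5 to 15 counts in the WT libraries, as the genotype labels have it. It was the only gene among the 18495 past an adjusted p of 0.05 by edgeR's quasi-likelihood test with Benjamini-Hochberg adjustment (adjusted p = 3.60e-09). Genes for ribosomal RNA took 6.44% of the counts in NPY tet/tet replicate 1 and 7.02% to 8.07% in WT replicates 1, 2, 3 and 5, but 0.0388% and 0.0754% in NPY tet/tet replicates 2 and 3 and 0.0641% in WT replicate 4. The rRNA-rich libraries thus set 1 NPY tet/tet mouse against 4 WT mice, and the rRNA-poor ones set 2 NPY tet/tet mice against 1 WT mouse. The summed CPM (counts scaled to a common library size, with TMM factors) of 8 keratinocyte markers was 10410 to 18520 in NPY tet/tet and 13230 to 21170 in WT skin, and that of 6 fibroblast markers was 2350 to 20380 in NPY tet/tet and 8237 to 19220 in WT skin, so every library carried the defining transcripts of skin. The lowest fibroblast sum was that of NPY tet/tet replicate 1, mainly through Col1a1 (423 CPM) and Col1a2 (508 CPM). Lum, Dpt and Dcn were also lowest in that library, while Pdgfra, at 72.7 CPM, lay within the WT range of 61.6 to 80.8 CPM.

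Ddx60, Zbp1 and Dhx58 stood lowest in NPY tet/tet skin relative to WT skin among the 10 genes, at 0.401, 0.314 and 0.465 times the WT mean. Ifih1 and Sting1 were also lower in every NPY tet/tet mouse than in every WT mouse, by smaller amounts. Tlr3, Tlr7, Cgas and Eif2ak2 overlapped between the genotypes, as did Tlr9. By edgeR, 0 of the 10 genes passed an adjusted p of 0.05, where 0.00541% of all tested genes did. Of the 10, 4 were lower in NPY tet/tet skin at an unadjusted p under 0.05 (Ddx60, Zbp1, Dhx58 and Ifih1), against 3.55% of all tested genes. None was higher at that level, against 2.43% of all tested genes (5.98% in either direction). DESeq2, run on the same counts, called 2 of the 10 lower, Ddx60 and Zbp1, against 0.233% lower and 0.369% in either direction among the genes to which it gave an adjusted p. The groups did not overlap, with NPY tet/tet lower, for 5 of the 10 genes, against 1.98% of all tested genes. The median log2 fold change (NPY tet/tet over WT) of the 10 genes was -0.35, beside 0.0041 over all tested genes, with 9 fitted values below 0, where 49.3% of all tested genes lay below 0. The genes share regulators and were chosen with earlier results of these data known, so these counts describe the 10 genes and test nothing about them as a group. In bulk tissue, fewer cells of a type and less RNA per cell cannot be told apart.

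**Figure D1:**
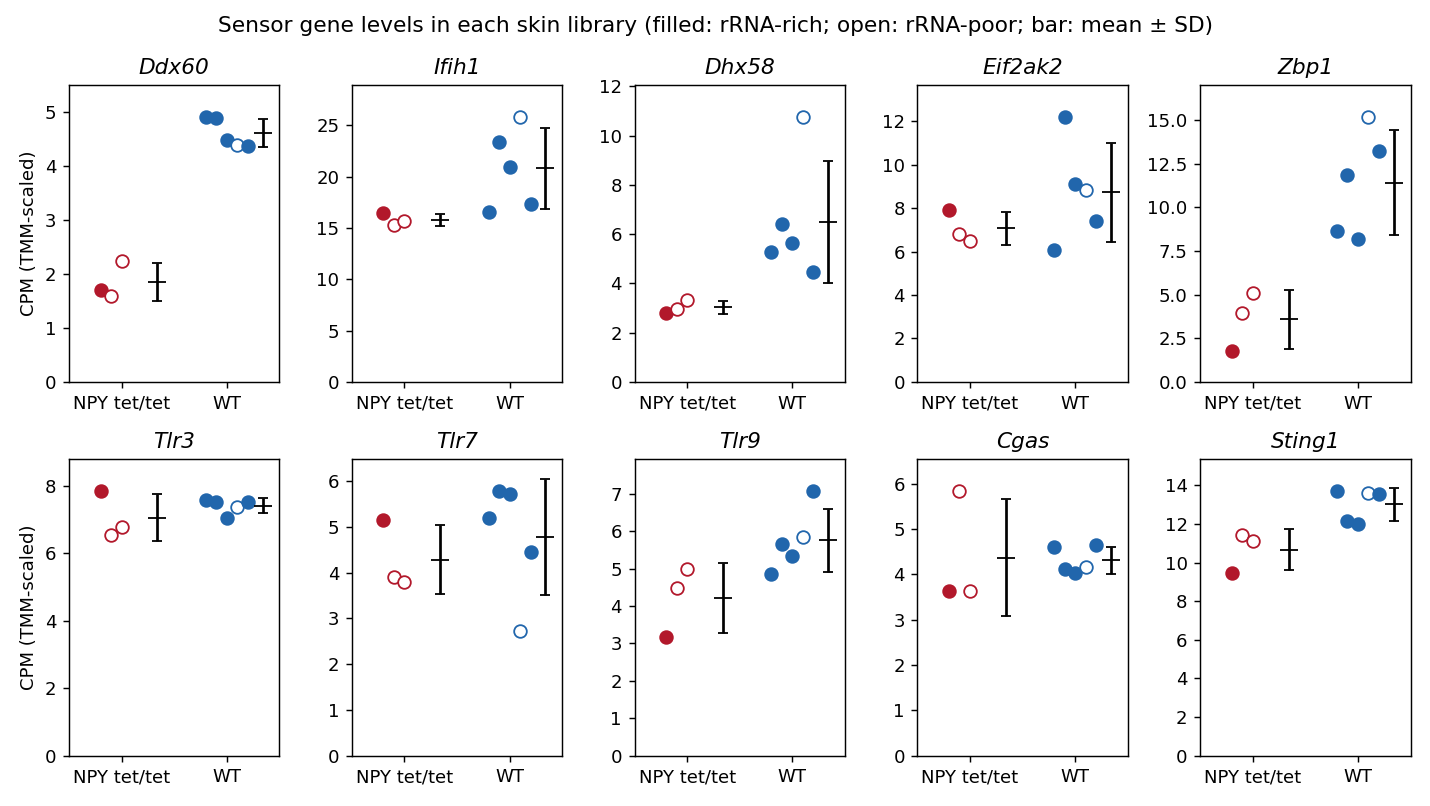
Each panel plots 1 gene in CPM (vertical axis, TMM-scaled) for 3 NPY tet/tet and 5 WT libraries. Filled points are rRNA-rich and open points rRNA-poor libraries, with the mean and SD beside each group. The NPY tet/tet points of Ddx60 lie at 1.60 to 2.25 CPM, below the WT points at 4.38 to 4.92 CPM, whereas those of Tlr3 and Cgas lie among the WT points or on either side of them.

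Among the cytosolic RNA helicases, Ddx60 had the smallest p of the 10 genes. Ddx60 encodes a DExD/H-box helicase that was described in human cells as a cofactor of RIG-I-like receptors. The gene (ENSMUSG00000037921) spans bases 62381121 to 62491278 of chromosome 8 in the deposited tables (mm39, plus strand). Its level was 1.70, 1.60 and 2.25 CPM in NPY tet/tet replicates 1 to 3, and 4.92, 4.89, 4.49, 4.40 and 4.38 CPM in WT replicates 1 to 5. The WT mice lay within a narrow band, with a coefficient of variation of 5.74%, and every NPY tet/tet mouse lay below it. These values rest on 59 to 78 counts per NPY tet/tet library and 131 to 220 counts per WT library. Counting error alone at these WT counts exceeds that coefficient of variation, which therefore does not show how alike the WT mice are. The log2 fold change was -1.32 (SE 0.23), with an adjusted p of 0.298 by edgeR and 1.01e-05 by DESeq2. Ddx60 ranked as number 4 of 18495 genes by edgeR's p. A two-sided exact permutation test on log2 CPM gave p = 0.0179, the smallest that 3 against 5 mice allow, as it did for Zbp1, Dhx58 and Sting1 among the 10 genes so tested, without adjustment. The value was -1.44 among the rRNA-rich libraries and -1.20 among the rRNA-poor libraries. With any 1 library left out it ranged from -1.48 to -1.22.

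The tested genes on the side of Ddx60's start had log2 fold changes nearer 0. All of them lay before base 62381121, where Ddx60 starts. No gene beyond its end was tested in the window, so that side is not described. Of 31 other genes within 1 Mb in the deposited coordinates, 8 were tested, and their log2 fold changes ranged from -0.27 (4930512H18Rik) to 0.31 (Gm7432), both with means under 1 CPM. Palld, which encodes the actin-binding protein palladin and lies close to Ddx60, stood at 77.9 ± 11.5 CPM in NPY tet/tet and 77.2 ± 17.2 CPM in WT skin (SD, n = 3 and 5). None of the 10 sensor genes shares chromosome 6 with Npy.

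Promoters from RefSeq (build GRCm38.p6, which is not the build of the deposited tables) were found for 6 of the 10 genes: Ddx60, Ifih1, Eif2ak2, Tlr3, Tlr9 and Cgas. Each covers 250 bases before to 50 bases after the gene's start and is written 5′ to 3′ on the gene's strand. The core of the interferon-stimulated response element was searched on both strands as GAAA, any 2 bases and again GAAA. It was present in the promoters of 3 of the 6 genes, Ddx60, Ifih1 and Eif2ak2, and in 3.44% of 32851 RefSeq promoters of the same length. The 3 promoters with a match are shown because their genes are the one of smallest p and 2 with narrower differences between the genotypes, and that of Cgas is shown as a promoter without a match whose gene had the log2 fold change nearest 0. Capitals mark the matches.
Ddx60 promoter (chr8:61927837-61928136, plus strand): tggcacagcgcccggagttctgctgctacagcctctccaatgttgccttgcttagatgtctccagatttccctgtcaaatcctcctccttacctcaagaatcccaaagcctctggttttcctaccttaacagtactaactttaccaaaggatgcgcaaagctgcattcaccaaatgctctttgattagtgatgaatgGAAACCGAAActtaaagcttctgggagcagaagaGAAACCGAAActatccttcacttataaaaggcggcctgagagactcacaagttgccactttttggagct
Ifih1 promoter (chr2:62646206-62646505, minus strand): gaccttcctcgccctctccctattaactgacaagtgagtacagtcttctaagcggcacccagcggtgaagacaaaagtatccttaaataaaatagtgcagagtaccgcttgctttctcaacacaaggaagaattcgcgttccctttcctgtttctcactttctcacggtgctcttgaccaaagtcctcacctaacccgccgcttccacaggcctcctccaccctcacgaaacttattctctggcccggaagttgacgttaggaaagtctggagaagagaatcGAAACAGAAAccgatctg
Eif2ak2 promoter (chr17:78882523-78882822, minus strand): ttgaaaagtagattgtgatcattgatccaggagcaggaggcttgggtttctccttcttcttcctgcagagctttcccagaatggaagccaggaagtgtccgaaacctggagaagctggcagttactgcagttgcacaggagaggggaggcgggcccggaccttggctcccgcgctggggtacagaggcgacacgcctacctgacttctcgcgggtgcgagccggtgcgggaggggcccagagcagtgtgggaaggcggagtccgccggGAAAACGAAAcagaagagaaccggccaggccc
Cgas promoter (chr9:78443188-78443487, minus strand): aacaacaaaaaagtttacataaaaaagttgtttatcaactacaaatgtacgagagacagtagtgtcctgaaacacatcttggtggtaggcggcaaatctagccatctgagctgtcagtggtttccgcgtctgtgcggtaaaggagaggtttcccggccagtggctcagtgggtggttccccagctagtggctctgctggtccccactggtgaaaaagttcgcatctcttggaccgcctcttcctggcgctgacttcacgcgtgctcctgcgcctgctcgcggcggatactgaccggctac

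The Ddx60 promoter held 2 matches, GAAACCGAAA in each case, whose first bases lie 53 and 19 bases before the gene's start. Ifih1 held 1 match, GAAACAGAAA, from base 33 of the gene, and Eif2ak2 held 1, GAAAACGAAA, from base 19. Of the 3 genes with a response element match, Ddx60 had a log2 fold change of -1.32, Ifih1 of -0.40 and Eif2ak2 of -0.30. For the 3 without one the values were -0.45 for Tlr9, -0.07 for Tlr3 and 0.02 for Cgas. The genes without a promoter here are in neither group: Zbp1 (-1.67), Dhx58 (-1.11), Sting1 (-0.29) and Tlr7 (-0.15). A relation between motif and fold change was not tested. A second motif, the GAS core (TTC, any 3 bases and GAA), was searched in the same windows and is not marked in capitals. It was present in 1 of the 6 promoters, that of Eif2ak2, and in 8.3% of the 32851 RefSeq promoters. A match of either motif's letters is a description of the window and not a measured binding site.

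Ifih1 encodes MDA5, the RIG-I-like receptor for long double-stranded RNA (chromosome 2, 62426142 to 62476599, minus strand, ENSMUSG00000026896). It took 542 to 637 counts per NPY tet/tet library and 518 to 1292 per WT library. Its level was 16.4, 15.3 and 15.6 CPM in NPY tet/tet replicates 1 to 3, and 16.6, 23.3, 21.0, 25.8 and 17.3 CPM in WT replicates 1 to 5. The NPY tet/tet mice lay close together just under the lowest WT mouse, 16.4 against 16.6 CPM at the nearest point, and the lack of overlap hangs on that gap. The log2 fold change was -0.40 (SE 0.17; adjusted p = 0.795 by edgeR). Among the rRNA-rich libraries it was -0.23, and among the rRNA-poor libraries -0.75, where the single WT mouse was the highest of all 8.

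Dhx58 encodes LGP2, the member of the family that lacks the signalling domain and modulates the other members (chromosome 11, 100585710 to 100595097, minus strand, ENSMUSG00000017830). Its level was 2.81, 2.95 and 3.32 CPM in NPY tet/tet replicates 1 to 3, and 5.30, 6.41, 5.63, 10.8 and 4.45 CPM in WT replicates 1 to 5. The groups did not overlap, and WT replicate 4 stood far above the others. For Dhx58 the log2 fold change came to -1.11 (SE 0.29), with an adjusted p of 0.549 by edgeR and 0.0523 by DESeq2. Without WT replicate 4 it was -0.84. Among the rRNA-rich libraries, which leave that mouse out, it was -0.93, and among the rRNA-poor libraries, where that mouse is the only WT mouse, -1.79. The long non-coding gene Dhx58os overlaps Dhx58 on the other strand and took 6 to 25 counts per library, and the libraries carry no strand, so reads of the pair cannot be told apart.

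Eif2ak2 encodes PKR, a kinase that binds double-stranded RNA and halts translation through the initiation factor eIF2 (chromosome 17, 79159993 to 79190002, minus strand, ENSMUSG00000024079). Its level was 7.91, 6.80 and 6.49 CPM in NPY tet/tet replicates 1 to 3, and 6.09, 12.2, 9.09, 8.82 and 7.39 CPM in WT replicates 1 to 5. The lowest value of all was that of a WT mouse. Eif2ak2 had a log2 fold change of -0.30 (SE 0.22; adjusted p = 0.813 by edgeR), with a 95% interval of -0.79 to 0.18.

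Zbp1 had the widest difference in fold of the 10 genes. Its protein binds Z-form nucleic acids and, through RIPK3 and MLKL, can trigger necroptosis (chromosome 2, 173048405 to 173060716, minus strand, ENSMUSG00000027514). Its level was 1.75, 3.93 and 5.08 CPM in NPY tet/tet replicates 1 to 3, and 8.66, 11.9, 8.18, 15.2 and 13.2 CPM in WT replicates 1 to 5. The highest NPY tet/tet mouse stood well below the lowest WT mouse, and both groups were spread widely, with coefficients of variation of 47.1% in NPY tet/tet and 26.2% in WT skin. The counts were 68, 145 and 176 in the NPY tet/tet libraries and 244 to 760 in the WT libraries. Zbp1 had a log2 fold change of -1.67 (SE 0.34), with an adjusted p of 0.346 by edgeR and 0.000556 by DESeq2. Among the rRNA-rich libraries it was -2.56 (adjusted p = 0.00884), where the NPY tet/tet mouse was the lowest of all 8, and among the rRNA-poor libraries it was -1.77 (adjusted p = 9.92e-04), where the WT mouse was the highest. In each of these fits 1 genotype is a single mouse, taken to vary as mice of the other genotype do. With a term for the rRNA-rich and rRNA-poor libraries the adjusted p was 0.0317 by edgeR (log2 fold change -2.18). Without NPY tet/tet replicate 1 and WT replicate 4, left out together after the data were seen, it was -1.21 (adjusted p = 0.685).

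**Figure D2:**
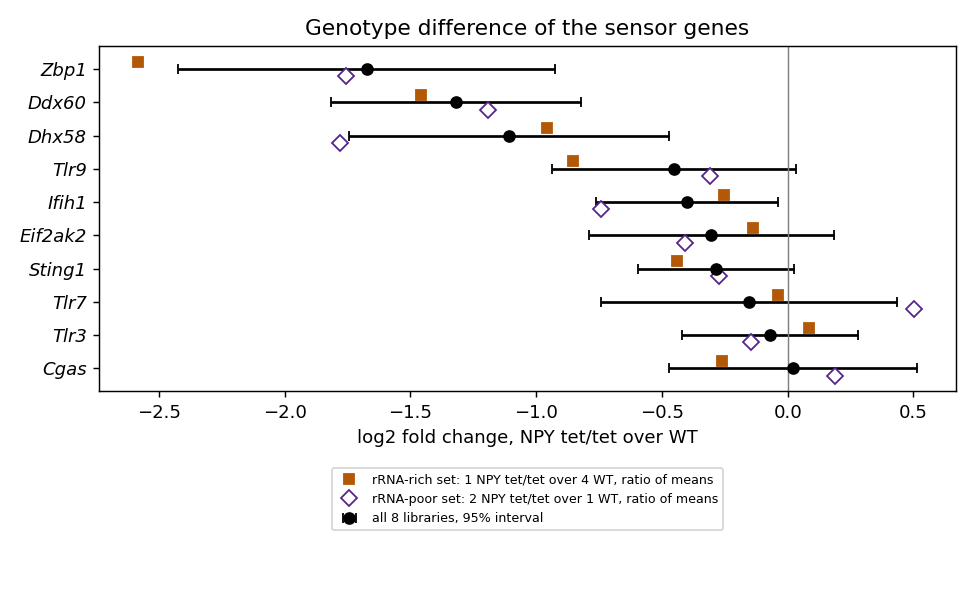
The horizontal axis gives the log2 fold change of NPY tet/tet over WT for each of the 10 genes, with black points for all 8 libraries and their 95% intervals. Squares and diamonds are log2 ratios of group means within the rRNA-rich (1 against 4 mice) and rRNA-poor (2 against 1) libraries. Zbp1, Ddx60 and Dhx58 lie below 0 in each, and the signs of Tlr3, Tlr7 and Cgas differ between the sets.

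The endosomal receptors overlapped between the genotypes. Tlr9, the CpG DNA receptor (chromosome 9, 106099797 to 106104082, plus strand, ENSMUSG00000045322), came closest, at 3.17, 4.47 and 4.99 CPM in NPY tet/tet replicates 1 to 3 and 4.85, 5.65, 5.33, 5.86 and 7.09 CPM in WT replicates 1 to 5. NPY tet/tet replicate 3 lay above WT replicate 1, the only crossing. Its log2 fold change was -0.45 (SE 0.22; adjusted p = 0.795 by edgeR), and -0.28 without NPY tet/tet replicate 1. Tlr3, the double-stranded RNA receptor (chromosome 8, 45848702 to 45864117, minus strand, ENSMUSG00000031639), stood at 7.86, 6.53 and 6.78 CPM in NPY tet/tet replicates 1 to 3 and at 7.04 to 7.58 CPM (median 7.52) in the 5 WT mice. NPY tet/tet mice thus lay on either side of the WT range. The 95% interval of its log2 fold change was -0.42 to 0.28, around a value of -0.07 (SE 0.16; adjusted p = 0.939 by edgeR).

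Tlr7, the single-stranded RNA receptor encoded on the X chromosome (166087925 to 166113554, minus strand, ENSMUSG00000044583), stood at 5.15, 3.90 and 3.81 CPM in NPY tet/tet replicates 1 to 3, and at 5.20, 5.80, 5.73, 2.72 and 4.45 CPM in WT replicates 1 to 5. Its lowest value was that of WT replicate 4, the mouse in which Zbp1, Ifih1 and Dhx58 were highest. Its fitted log2 fold change was -0.15 (95% interval -0.74 to 0.43; adjusted p = 0.918 by edgeR). Its sign depended on the libraries compared, at -0.019 among the rRNA-rich and 0.49 among the rRNA-poor libraries.

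Of the cytosolic DNA pathway, Sting1 was lower in each NPY tet/tet mouse and Cgas was not. Sting1 encodes the STING adaptor of the endoplasmic reticulum (chromosome 18, 35866732 to 35873607, minus strand, ENSMUSG00000024349). Its level was 9.48, 11.4 and 11.1 CPM in NPY tet/tet replicates 1 to 3, and 13.7, 12.2, 12.0, 13.6 and 13.5 CPM in WT replicates 1 to 5. The groups lay close to each other without overlap. The log2 fold change was -0.29 (SE 0.14; 95% interval -0.60 to 0.023; adjusted p = 0.795 by edgeR), and it kept its sign in all 23 alternatives, among which the changed threshold cannot alter a sign. Cgas, the DNA sensor itself (chromosome 9, 78337808 to 78350519, minus strand, ENSMUSG00000032344), stood at 3.63, 5.85 and 3.63 CPM in NPY tet/tet replicates 1 to 3, and at 4.02 to 4.65 CPM (median 4.16) in the 5 WT mice. NPY tet/tet replicate 2 was the highest of all 8 and the other two the lowest. The log2 fold change was 0.021 (95% interval -0.47 to 0.51; adjusted p = 0.990 by edgeR), and its sign turned without NPY tet/tet replicate 2, to -0.25.

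Per gene length, Sting1 was the most abundant of the 10 transcripts and Ddx60 the scarcest. Sting1 averaged 3.85 ± 0.377 FPKM in NPY tet/tet and 4.69 ± 0.309 FPKM in WT skin, and Ddx60 averaged 0.210 ± 0.0402 FPKM in NPY tet/tet and 0.525 ± 0.0276 FPKM in WT skin (SD, n = 3 and 5). Over all 8 libraries the order by mean FPKM was Sting1 (4.37), Zbp1 (2.38), Ifih1 (2.29), Dhx58 (1.57), Eif2ak2 (1.57), Tlr9 (1.47), Tlr3 (1.38), Tlr7 (1.11), Cgas (1.04) and Ddx60 (0.407). Sting1 lay above Zbp1, and Cgas above Ddx60, in 8 of 8 libraries. Between Zbp1 and Cgas no neighbouring pair kept its order in all 8 libraries, and Zbp1 exceeded Ifih1 in 4 of 8. Zbp1 averaged 1.00 ± 0.474 FPKM in NPY tet/tet and 3.20 ± 0.852 FPKM in WT skin, which placed it under Ifih1 (1.91 ± 0.0703 FPKM) in NPY tet/tet skin and over it (2.52 ± 0.482 FPKM) in WT skin. The order over all 8 libraries thus pools genotypes that differ in it. In NPY tet/tet skin alone the mean of Zbp1 was above only those of Dhx58 and Ddx60. That of Dhx58 (0.914 ± 0.0803 FPKM, against 1.97 ± 0.758 FPKM in WT skin) was above only that of Ddx60.

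**Figure D3:**
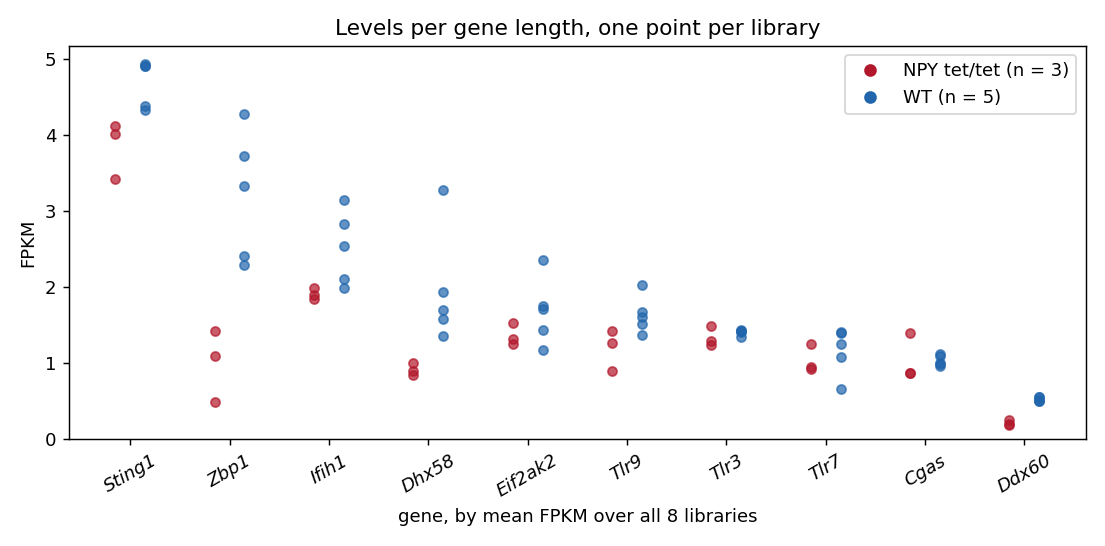
The vertical axis gives FPKM for each of the 10 genes, ordered by their mean over all 8 libraries, with 1 point per library and NPY tet/tet left of WT. Sting1 lies at 3.42 to 4.93 FPKM and Ddx60 at 0.182 to 0.556 FPKM, and the points of Zbp1, at 0.490 to 4.28 FPKM, reach into both ranges.

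The spread among WT mice was wide for some sensors and narrow for others. Coefficients of variation over the 5 WT mice were 38.2% for Dhx58, 26.6% for Tlr7, 26.3% for Eif2ak2, 26.2% for Zbp1 and 18.9% for Ifih1, and 14.5% for Tlr9, against 5.74% for Ddx60, 6.57% for Sting1, 6.73% for Cgas and 2.97% for Tlr3. Those of Ddx60, Cgas and Tlr3 are below the counting error at their counts, so they do not show how alike the mice are. WT replicate 4 was the highest of all 8 libraries for 3 genes (Zbp1, Ifih1 and Dhx58), while NPY tet/tet replicate 1 was the lowest for 5 (Zbp1, Dhx58, Tlr9, Cgas and Sting1). For Ddx60, WT replicate 4 was the lowest but 1 of the WT mice. The genes whose log2 CPM followed each sensor most closely were sought over the 8 libraries among 13597 other genes of at least 1 CPM, as a description. The 8 points include both genotypes, so a difference between genotypes adds to each r, and the 2 genes of a pair share each library. Each r given is among the 3 highest of 13597 values over 8 points, so the choice itself makes it high. For Dhx58 they were Oasl2, Bst2 and Oas1a (Pearson r 0.971, 0.970 and 0.969), for Ifih1 Oas1g, Clca3a2 and Oasl2 (0.985, 0.961 and 0.958), and for Zbp1 they included Mlkl and Zfp382 (0.961 and 0.960). Oasl2, Oas1a, Oas1g and Bst2 are known interferon-induced genes. For Ddx60 they were Il10rb, Dab2 and Lcp1 (0.986, 0.956 and 0.950), which encode an interleukin 10 receptor chain, an endocytic adaptor and the leukocyte actin-bundling protein plastin. Over the 5 WT mice alone r with Ddx60 was below 0 for Dab2 and Lcp1. The spread of Ddx60 among those mice is below its counting error. Their r therefore cannot show whether the likeness holds within WT skin. Cgas was followed by Myh7, Knstrn and Cenpf (0.966, 0.943 and 0.926), the last 2 being genes of the mitotic spindle and kinetochore. For Eif2ak2 the closest were Cd48, Agtr1a and Gas2 (0.948, 0.911 and 0.897), and for Sting1 S1pr3, Tmem53 and Pdlim4 (0.976, 0.974 and 0.966). The Toll-like receptors were followed by Kcna1, Tbx18 and Pik3r5 for Tlr3 (0.991, 0.947 and 0.940), by Pknox2, Kcnma1 and Ano5 for Tlr7 (0.982, 0.977 and 0.959), and by Myadm, Slc16a12 and Morn4 for Tlr9 (0.962, 0.949 and 0.938). Within the 5 WT mice r was 0.446 for Zfp382 with Zbp1 and 0.663 for Cenpf with Cgas. For Il10rb with Ddx60 it was 0.574, and for the other named pairs outside Ddx60 it ranged from 0.749 to 0.996. These 5 mice are among the 8 points by which the genes were picked.

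Among 16 partners of the RIG-I-like receptors 0 passed by edgeR, and the median log2 fold change was 0.054. Of the 16, 1 stood lower with an unadjusted p under 0.05, against 3.55% of all tested genes. That gene was Irf7, the interferon-induced regulator of interferon transcription, at 6.49, 8.24 and 11.8 CPM in NPY tet/tet replicates 1 to 3 and 14.2, 26.9, 20.7, 36.7 and 14.8 CPM in WT replicates 1 to 5. Its log2 fold change was -1.36 (SE 0.34), with an adjusted p of 0.549 by edgeR and 0.00946 by DESeq2. Ddx58, which encodes RIG-I itself, averaged 15.4 ± 0.539 CPM in NPY tet/tet and 19.4 ± 4.21 CPM in WT skin, without overlap (adjusted p = 0.796 by edgeR). Mavs, the shared adaptor, averaged 53.5 ± 2.74 CPM in NPY tet/tet and 62.7 ± 4.98 CPM in WT skin, also without overlap, and the transcription factor gene Irf3 averaged 52.4 ± 4.86 and 43.4 ± 6.72 CPM in NPY tet/tet and WT skin (SD, n = 3 and 5; adjusted p = 0.795 and 0.796 by edgeR).

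Of 16 partners of the endosomal receptors 0 passed by edgeR, with a median log2 fold change of -0.056. Of the 16, 3 stood lower with an unadjusted p under 0.05, against 3.55% of all tested genes. Unc93b1, the chaperone that carries these receptors to endosomes, stood at 51.9, 32.8 and 54.2 CPM in NPY tet/tet replicates 1 to 3 and at 59.0 to 82.7 CPM in WT skin, without overlap (log2 fold change -0.63, SE 0.18; adjusted p = 0.594 by edgeR). Tlr13, a mouse receptor for bacterial ribosomal RNA, averaged 1.81 ± 0.712 CPM in NPY tet/tet and 3.29 ± 0.464 CPM in WT skin, and the transporter gene Slc15a3 averaged 3.95 ± 1.23 CPM in NPY tet/tet and 6.52 ± 1.53 CPM in WT skin. Lgmn, an endosomal protease that cleaves these receptors, averaged 85.7 ± 19.4 CPM in NPY tet/tet and 110.5 ± 16.5 CPM in WT skin. These 3 had adjusted p values of 0.782 to 0.795 by edgeR.

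Of 16 tested genes of cytosolic DNA sensing and nucleic acid clearance, 0 passed by edgeR. Of the 16, 1 stood lower with an unadjusted p under 0.05, against 3.55% of all tested genes. This was Samhd1, which depletes the nucleotides needed for viral DNA synthesis, at 78.4 ± 6.85 CPM in NPY tet/tet and 95.6 ± 7.62 CPM in WT skin (SD, n = 3 and 5; adjusted p = 0.795 by edgeR). Pqbp1, a cofactor of cGAS in human cells, averaged 24.0 ± 4.10 CPM in NPY tet/tet and 29.8 ± 3.46 CPM in WT skin. The interferon-inducible genes Ifi204 (15.0 ± 2.25 CPM in NPY tet/tet and 18.5 ± 3.29 CPM in WT skin) and Ifi203 (8.55 ± 3.36 CPM in NPY tet/tet and 11.7 ± 2.69 CPM in WT skin) belong to a family of near-identical copies, so their single values are uncertain. Of 14 partners and effectors of PKR and ZBP1, 0 passed by edgeR. Mlkl and Prkra, 2 of the 14, stood lower with an unadjusted p under 0.05, against 3.55% of all tested genes. Mlkl, the pore-forming effector of necroptosis, stood at 2.81, 3.31 and 3.66 CPM in NPY tet/tet replicates 1 to 3 and at 4.76 to 6.70 CPM in WT skin, without overlap (log2 fold change -0.76, SE 0.21; adjusted p = 0.583 by edgeR and 0.0645 by DESeq2). Prkra, which encodes the PKR activator PACT, averaged 16.4 ± 1.37 CPM in NPY tet/tet and 20.3 ± 1.73 CPM in WT skin. Fadd averaged 11.4 ± 1.75 CPM in NPY tet/tet and 14.4 ± 1.65 CPM in WT skin, and the eIF2 phosphatase regulator Ppp1r15a averaged 31.1 ± 6.39 CPM in NPY tet/tet and 26.2 ± 2.21 CPM in WT skin.

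Transcripts of the 9 interferon genes looked at were scarce in both genotypes. Ifna2 and Ifna4 were the only interferon alpha genes among them, and others of that family were not looked at. Of the 9 genes 6 (Ifnb1, Ifne, Ifnl2, Ifnl3, Ifna4 and Ifna2) had 0 counts in all 8 libraries, which allows a pooled level of up to 0.0103 CPM (3 counts over all libraries, counting error only). A listed 0 can also come from how reads were assigned: Trex1, a widely expressed nuclease gene, was at 0 counts in all 8 libraries too, and several interferon genes are near-identical copies. Ifng had 3, 1 and 0 counts in NPY tet/tet replicates 1 to 3 and 4, 1, 2, 12 and 7 in WT replicates 1 to 5. Ifnk had 8 in the NPY tet/tet group and 5 in the WT group, and Ifnz had 2 in the NPY tet/tet group and 1 in the WT group. The filter on low counts left all 9 untested. The cytokine genes Il15 (5.48 ± 2.12 CPM in NPY tet/tet and 5.63 ± 0.888 CPM in WT skin) and Il18 (12.3 ± 1.23 CPM in NPY tet/tet and 10.8 ± 3.70 CPM in WT skin) overlapped between the genotypes. Of 18 interferon-response genes outside the sensors, Irf7 among them, 0 passed by edgeR, 12 stood lower with an unadjusted p under 0.05 (3.55% of all tested genes did), and DESeq2 called 5 lower (0.233% of all). This list too was chosen with earlier results of these data known. The median log2 fold change was -0.77, with all 18 fitted values below 0. Among those of smallest p were Oas1a (2.30 ± 0.527 CPM in NPY tet/tet and 7.14 ± 3.62 CPM in WT skin) and Rtp4 (3.14 ± 0.333 CPM in NPY tet/tet and 9.72 ± 5.32 CPM in WT skin), each with an adjusted p of 0.535 by edgeR.

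**Figure D4:**
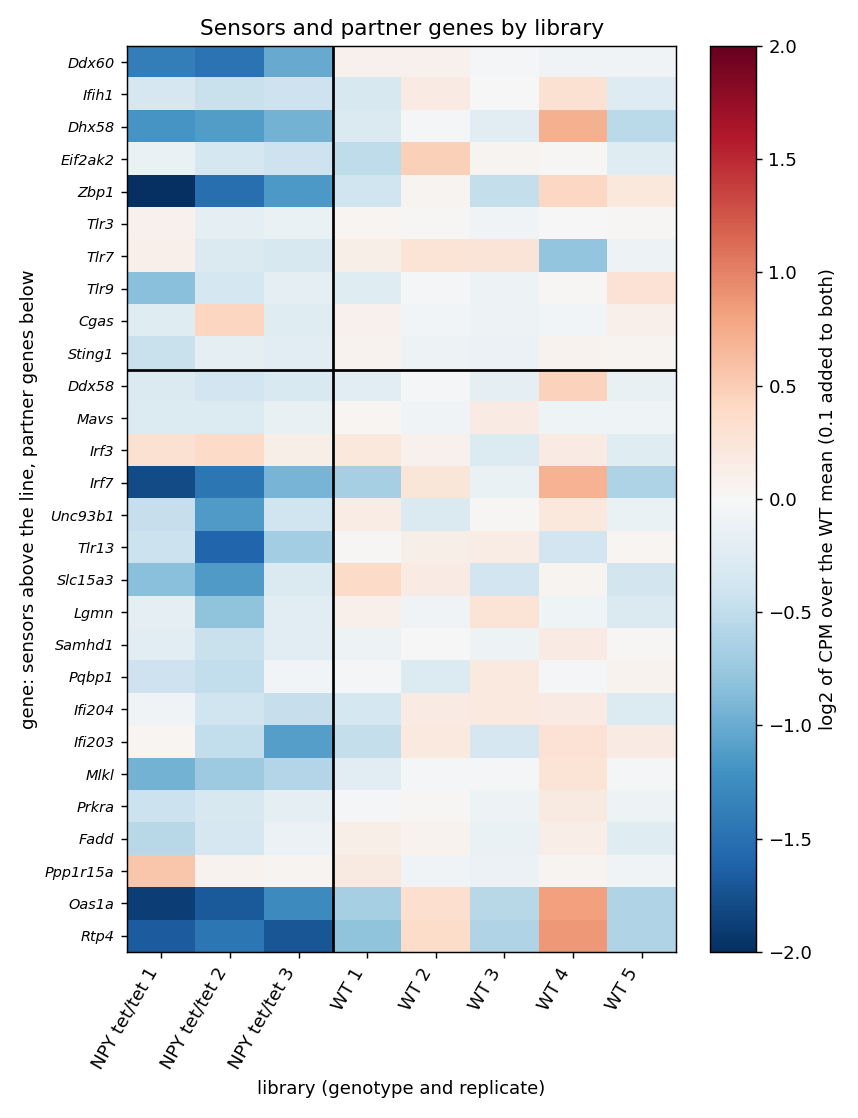
Colour gives the log2 of a gene's CPM over its WT mean, with 0.1 CPM added to both, for the 10 sensors above the line and 18 partner genes below it, in 3 NPY tet/tet and 5 WT libraries, with colours limited to -2 and 2. Zbp1, Dhx58, Irf7, Oas1a and Rtp4 are blue in all 3 NPY tet/tet libraries and red in WT replicate 4, and Ddx60 is blue in all 3 while the WT side of its row is nearly white.

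Markers of other cell types that can carry these sensors were summed in each library, and 0 of them passed by edgeR. The summed CPM of 9 macrophage and monocyte markers was 589, 384 and 642 in NPY tet/tet replicates 1 to 3 and 597 to 889 in WT skin. Of these markers 9 of 9 had a fitted value below 0 (median log2 fold change -0.44), where 49.3% of all tested genes did. At an unadjusted p under 0.05 by edgeR 4 stood lower, against 3.55% of all tested genes. For 9 dendritic and Langerhans cell markers the sum was 428 to 563 in NPY tet/tet and 545 to 905 in WT skin. It came largely from H2-Aa (353 ± 75.4 CPM in NPY tet/tet and 536 ± 129 CPM in WT skin) and Epcam (82.7 ± 18.9 and 69.5 ± 13.7 CPM). Of these 9 markers 6 had a fitted value below 0 and 3 above, and 2 stood lower at an unadjusted p under 0.05 by edgeR. For 8 T and NK cell markers the sum was 27.8 to 37.4 in NPY tet/tet and 24.5 to 62.2 in WT skin. For 7 B and plasma cell markers, with Pax5 at 0 counts throughout, it was 13.0 to 32.7 in NPY tet/tet and 11.3 to 55.2 in WT skin. Plasmacytoid dendritic cells, a main site of Tlr7 and Tlr9, were faint. Their defining marker Siglech averaged 1.68 ± 0.382 CPM in NPY tet/tet and 1.67 ± 0.915 CPM in WT skin, and the sum of 476 to 510 in NPY tet/tet and 417 to 636 in WT skin came largely from Ly6d and Cox6a2, which keratinocytes and muscle also express. Of their 8 markers 7 were tested, with 4 fitted values above 0 and 3 below. Among them Bcl11a stood higher at an unadjusted p under 0.05 by edgeR, against 2.43% of all tested genes. It averaged 16.7 ± 3.15 CPM in NPY tet/tet and 11.8 ± 2.23 CPM in WT skin. Endothelial markers summed to 152 to 224 in NPY tet/tet and 186 to 268 in WT skin, adipocyte markers to 1659 to 4032 in NPY tet/tet and 2666 to 4365 in WT skin, and skeletal muscle markers to 23910 to 37890 in NPY tet/tet and 24940 to 61340 in WT skin. All 5 adipocyte markers (median log2 fold change -0.38) and all 5 skeletal muscle markers (-0.55) also had fitted values below 0. The other marker lists held fitted values on both sides of 0. At an unadjusted p under 0.05 by edgeR 1 of 5 adipocyte and 1 of 5 endothelial markers stood lower, against 3.55% of all tested genes. The part of any of these cell types in the sensor genes' values was not tested.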

How the data were processed

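Whole-skin RNA of 8 mice (3 NPY tet/tet, 5 WT) was sequenced as non-directional libraries, per the labels. The authors deposited raw counts per Ensembl gene, whole numbers with 1 column per mouse, and FPKM, which from their values are those counts divided by the gene length in the file and by a library factor. HISAT2 2.0.5, featureCounts 1.5.0-p3, DESeq2 1.20.0, CASAVA and mm39 are named per the submitters' processing notes, without their roles. Columns were joined to mice through the mouse number of each title. From sample 3 on, the descriptions give a library name whose mouse number is 1 higher, with the same genotype.

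Counts were tested with edgeR 4.0.16 in R 4.3.3 (filterByExpr, TMM, robust quasi-likelihood fit, genotype as the only term, two-sided), with Benjamini-Hochberg adjustment over 18495 genes and a threshold of 0.05. The SE is the size of the log2 fold change over the square root of F, and the 95% intervals use it with the test's degrees of freedom. CPM are TMM-scaled. The depth per library sets the counting error. The procedures were tested on simulated data. Alternatives were DESeq2 1.42.0, limma 3.58.1 (voom, and log2 FPKM with a pseudocount of 1 or 0.1), other size factors, filters and thresholds, ribosomal RNA content (boundary 1% of counts), a replicate block and left-out libraries. The genes named are the 10 sensors, Npy, the up to 4 genes of smallest p in each partner list, the interferon genes and the 3 genes most like each sensor by Pearson r of log2 CPM (prior count 2). 1 gene that this rule names is not reported here. Palld, Gm7432, 4930512H18Rik, Trex1 and Bcl11a were named after their values were seen. The sensors and lists were chosen with earlier results of these data known.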

Additional observations from a re-analysis of the deposited data

Results flagged for a closer look

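3 values lay farther from the other WT mice than Dixon's 95% criterion for 5 samples allows, which chance alone does in about 1 of 20 groups, and 32 genes were looked at. Ddx58, the RIG-I gene, was high in WT replicate 4 at 26.7 CPM, the mouse in which Zbp1, Ifih1 and Dhx58 were also highest. Tlr13 was low in the same mouse at 2.50 CPM. Npy was high in WT replicate 5 at 0.502 CPM, which rests on 15 counts.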

How the results depend on the processing

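The median log2 fold change of the 10 sensors stayed below 0 in all 23 alternatives. Among these, the adjusted p under 0.1 leaves every fold change as it was. The median was -0.25 on log2(FPKM + 1), which compresses low genes by construction, and -0.44 to -0.30 with 1 library left out. The number of sensors called stayed at 0 except with DESeq2 (2), with a term for ribosomal RNA content (1), among the rRNA-rich libraries alone (1) and among the rRNA-poor libraries alone (2), where the cause was not tested. By edgeR the calls over all genes were 21 with no filter on low counts, 2 at an adjusted p under 0.1, 2 with the replicate block, 11 with the term for ribosomal RNA content, 332 among rRNA-rich and 227 among rRNA-poor libraries alone, and 5 without NPY tet/tet replicate 1 and WT replicate 4 together, an alternative chosen after seeing the data. They were 68 with DESeq2, 3 by limma-voom, 2 by limma on either log2 FPKM scale, and 1 to 8 with 1 library left out (8 without NPY tet/tet replicate 3).

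Sensors called were Ddx60 by DESeq2 (log2 fold change -1.32), Zbp1 by DESeq2 (-1.68 here), with that term (-2.18) and among the rRNA-rich (-2.56) and rRNA-poor (-1.77) libraries, and Dhx58 in the rRNA-poor ones (-1.79, against the single WT mouse that was highest for it). Leaving out 1 library gave -1.48 to -1.22 for Ddx60, -2.01 to -1.34 for Zbp1 and -1.22 to -0.84 for Dhx58. Signs turned for Cgas (-0.012 on log2(FPKM + 0.1), -0.052 with that term, -0.24 in the rRNA-rich libraries, and -0.25 to 0.15 with 1 library left out), Tlr7 (0.21 with that term and 0.49 in the rRNA-poor libraries) and Tlr3 (0.10 in the rRNA-rich ones). They also turned for Ifi203 (0.15) in the rRNA-rich libraries, and for Ppp1r15a (-0.0065), Il15 (0.23) and Il18 (-0.47) in the rRNA-poor ones. Il15 ranged from -0.24 to 0.26 with 1 library left out.

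The genotypes share replicate numbers, and the titles name no pairs. Deviations of same-numbered mice correlated at -0.044, -0.11 and 0.30, and those of differently numbered mice at -0.45 to 0.35. These few values cannot settle whether mice are paired, and the mice were not taken as pairs. With the replicate block 2 genes passed and 0 of the sensors did, with Ddx60 at -1.38 (adjusted p = 0.236 by edgeR). With 59 to 78 counts of Ddx60 per NPY tet/tet library, counting error limits the precision of its values.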
